A study of Mus musculus with 9 samples.

Results

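The 2 cytoplasmic actins and 7 proteins that bind them were followed in single cells of the mouse neocortex. The genes were *Actb*, *Actg1*, *Cfl1*, *Pfn1*, *Pfn2*, *Tmsb4x*, *Tmsb10*, *Marcks* and *Marcksl1*, 9 of the 17487 genes listed for the series, and all 9 had values in every library. They were chosen by the level of *Actb*, which differed between WT2, WT3 and WT4 and KO4 and KO5 in an earlier reading of these data. So the difference of *Actb* between the genotypes is given below as values only, with no test. The question put to the other 8 was whether they shared it.

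Single-cell RNA was counted at E18.5, the embryonic stage just before birth, with 10x Genomics Chromium 3′ v2 chemistry, in which each captured molecule carries a unique molecular identifier (UMI) and is read at its 3′ end. There were 9 libraries, 1 per embryo, of which 5 were labelled wild type (WT1 to WT5) and 4 knockout (KO1, KO2, KO4 and KO5). Knockout embryos were homozygous for a *lacZ*/neomycin insertion before exon 4 of *Tcf4*, and wild-type embryos were littermates from the same matings of *Tcf4* haploinsufficient parents, with a strain label of Tcf4ex4WT/lacZ shared by all. The study found that the insertion removes the long TCF4B protein while the short TCF4A persists. Levels are the mean, over the cells of a class in 1 library, of UMIs per 10000 UMIs of the cell. They are not divided by transcript length, so each gene is compared with itself and not with another gene.

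Actin monomers join into filaments that push out the growth cone of a young axon and hold the shape of a dividing progenitor. Profilins feed monomers to growing ends, thymosins hold monomers back, cofilin severs old filaments, and the MARCKS proteins link filaments to the plasma membrane. *Actb* and *Actg1* are the most widely used actin genes outside muscle, and in young neurons this machinery steers the growing tip of the axon.

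The counting of both actin genes rests on bases that differ between them, so the start of each coding sequence is shown, from 1 transcript of each in the GENCODE annotation of GRCm38. Capitals mark the bases that differ, 9 of the first 60.

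Actb: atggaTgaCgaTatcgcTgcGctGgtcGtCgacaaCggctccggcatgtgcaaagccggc

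Actg1: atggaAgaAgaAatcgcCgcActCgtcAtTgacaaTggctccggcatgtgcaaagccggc

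Over the whole coding sequence 1000 of 1128 bases, 88.7%, were identical. After the stop codon, where a 3′ tag falls, the 683 bases of *Actb* and the 700 of *Actg1* shared no stretch of 31 bases. The same search over the last 500 bases of each of the 9 transcripts found no stretch shared between any pair of them. Copies elsewhere were found for some. Of the 31-base stretches in the *Tmsb10* tail 83.6% also occurred in 9 other annotated genes, for *Actb* 26.2% (in 3 other genes, among them *Lrrc58*), for *Cfl1* 13.0%, for *Pfn1* 1.70% and for *Marcksl1* 0.851%. Reads from those stretches could have been dropped or assigned to a copy, so the absolute levels of *Tmsb10* and *Actb* are uncertain in every library.

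On GRCm38 *Actb* lies at chr5:142903115-142906754 on the minus strand and *Actg1* at chr11:120345690-120348542 on the minus strand. *Cfl1* is at chr19:5490455-5495201 (plus), *Pfn1* at chr11:70651850-70654644 (minus) and *Pfn2* at chr3:57841895-57848079 (minus). *Tmsb4x* is at chrX:167207093-167209315 (minus), *Tmsb10* at chr6:72957347-72958748 (minus), *Marcks* at chr10:37133375-37138920 (minus) and *Marcksl1* at chr4:129513581-129515985 (plus). All 9 are protein-coding genes.

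Actin genes are classic targets of serum response factor (SRF), which binds the CArG box and is held in check by free actin monomers. The RefSeq promoter table (GRCm38.p6) held 7 of the 9 members. It had no entry for *Actb* or *Marcks*, so these were not searched. The CArG box was searched on both strands of the 250 bases before each start and was found in 482 of 32851 promoters, 1.47%. Among the 7 members it was found only before *Actg1*, first base 90 bases upstream, in the 200 bases at chr11:120348546-120348745 (minus strand) shown with the match in capitals. The same window of *Marcksl1*, the member that was called between genotypes in glutamatergic neurons, is given beside it (chr4:129513331-129513530, plus strand) and held no match.

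Actg1: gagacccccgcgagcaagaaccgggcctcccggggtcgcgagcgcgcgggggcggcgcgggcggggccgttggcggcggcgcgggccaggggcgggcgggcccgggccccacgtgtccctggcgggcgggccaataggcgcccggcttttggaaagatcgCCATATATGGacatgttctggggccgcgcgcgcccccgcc

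Marcksl1: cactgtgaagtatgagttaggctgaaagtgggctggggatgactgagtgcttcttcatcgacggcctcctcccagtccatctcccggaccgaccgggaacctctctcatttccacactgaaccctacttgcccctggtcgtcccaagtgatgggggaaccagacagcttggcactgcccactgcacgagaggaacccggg

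Libraries differed in depth and content. Of the cells deposited, 118 to 6173 per library were kept, with a median of 2217 to 4359 UMIs per cell, and the total deposited was 348105 to 29767293 UMIs per library. Depth went with the groups compared. The median was 2290 in KO4, 2217 in KO5 and 2226 in WT5, against 2478.5, 3636 and 4359 in WT2, WT3 and WT4. Cells left without a class were 28.9%, 31.4% and 32.1% of the former and 18.1%, 11.4% and 14.0% of the latter. Cells were put in a class by the largest number of detected marker genes, at least 2, and the excitatory glutamatergic neurons with fewer than 2 deep layer markers made the class in which the members are described first. The comparison of genotypes used WT2, WT3 and WT4 against KO4 and KO5, which held 525 to 2357 of these neurons each. The library labelled WT5 held 1491 of them, KO1 84, WT1 28 and KO2 21, and these 4 are shown beside the others. *Tcf4* itself was 12.2 to 12.6 UMIs per 10000 over all kept cells in WT2, WT3 and WT4, 9.29 in KO4 and 7.59 in KO5, against 7.20 in the library labelled WT5 and 16.7 in the library labelled KO1. A 3′ tag reads both isoforms and does not read the insertion, so this checks no label. WT5 was nonetheless the 1 large library labelled wild type whose *Tcf4* lay below KO4 and KO5. The study used libraries above a minimum number of cells and set aside a wild-type animal for *Tcf4* below the knockouts. WT1 also had *Tcf4* below KO4 and KO5, at 4.65, but with 131 deposited cells it was the smallest library labelled wild type. That leaves WT5 as the larger wild-type library that meets the description, though the labels do not name the animal. Fits with WT5 added take the labels as given and may include the animal that the study set aside. Cells with over 1% haemoglobin UMIs were removed, and they were 0.421% to 1.34% of cells in WT2, WT3 and WT4, 3.71% in WT5, 13.9% in KO4 and 40.4% in KO5. KO5 had no *Xist* UMI and every other library had at least 357, so KO5 was the 1 male library. Any 2 libraries shared at most 46 cell barcodes.

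*Actb*, the cytoplasmic beta-actin, measured 56.2, 68.1 and 42.6 UMIs per 10000 in glutamatergic neurons of WT2, WT3 and WT4, and 173 (KO4) and 170 (KO5). The groups did not overlap, and the means were 55.6 ± 12.7 (SD, n = 3) and 172 ± 2.06 (SD, n = 2), a log2 difference of 1.63. The other libraries did not follow their labels in this gene. *Actb* was 198 in the library labelled WT5 and 174 in the 28 cells of WT1, both above KO4 and KO5, while KO1 at 56.7 lay among WT2, WT3 and WT4, and KO2 at 147 lay between. With WT5 added to the wild-type group the log2 difference was 1.18, and with every library of at least 20 glutamatergic neurons entered as labelled it was 0.49. The share of cells removed for haemoglobin was also higher in KO4, KO5 and WT5 than in WT2, WT3 and WT4, as given above, and was 3.08% in WT1, 4.34% in KO1 and 1.67% in KO2, and its part in the level of *Actb* was not tested.

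*Actg1*, the cytoplasmic gamma-actin, did not show this pattern. Its level stood at 32.6, 30.7 and 31.8 in WT2, WT3 and WT4, and 29.0 (KO4) and 28.8 (KO5), with WT5 at 27.9, WT1 at 29.5, KO2 at 26.8 and KO1 at 18.9. KO4 and KO5 were below the 3 wild-type libraries without overlap, opposite in direction to *Actb*. The log2 difference was −0.13 (95% interval −0.46 to 0.20, limma adjusted p = 0.603). It is not tested against the difference of *Actb*, which chose these genes.

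**Figure D1:**
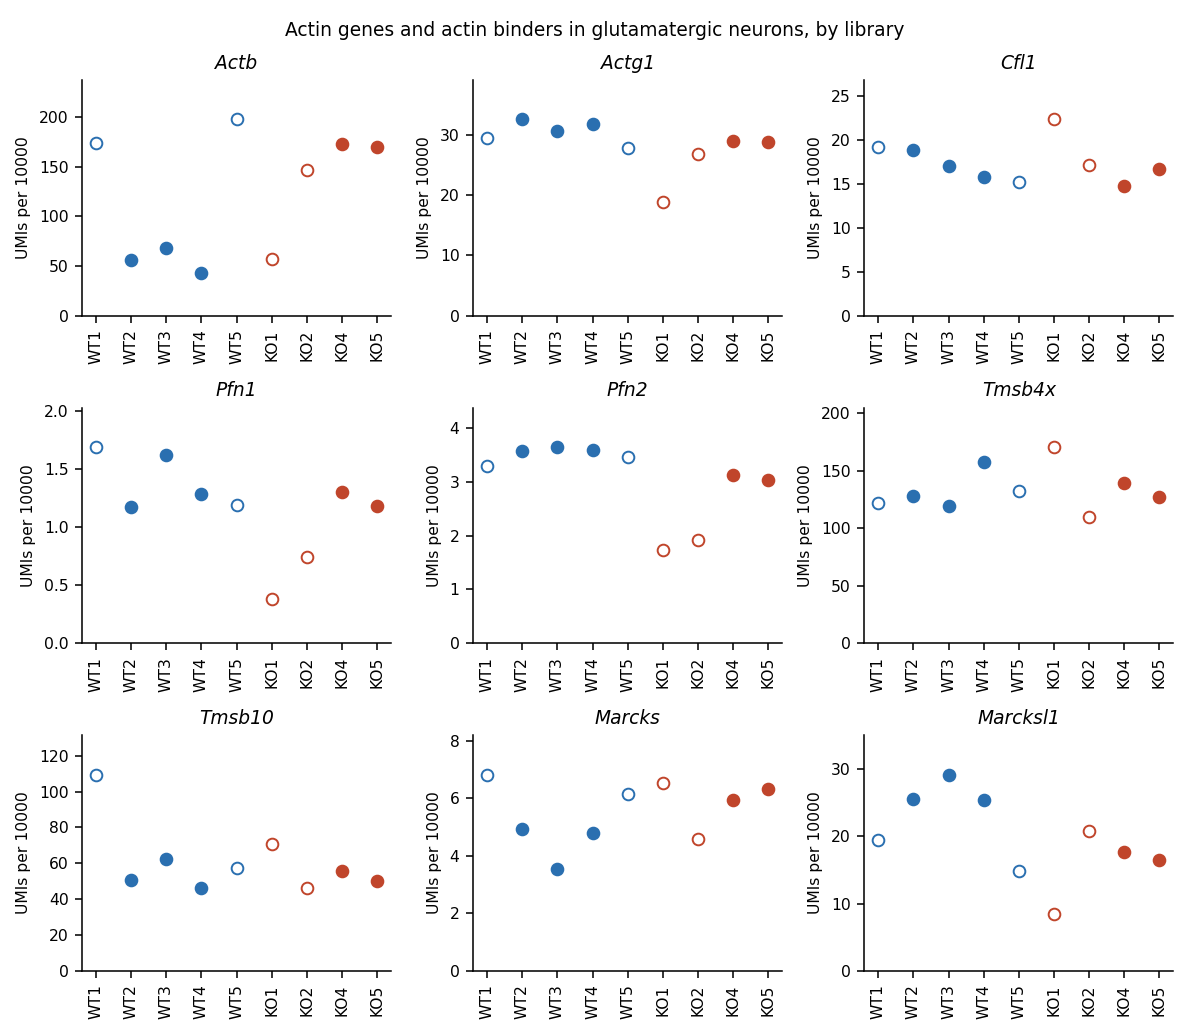
Level of each of the 9 genes (UMIs per 10000, mean over glutamatergic neurons, 1 panel a gene, each panel with its own axis from 0) in the 9 libraries. Filled points are the 5 libraries compared and open points are WT1, WT5, KO1 and KO2. *Actb* is high in WT1, WT5, KO2, KO4 and KO5, at 147 to 198, while *Actg1* lies between 26.8 and 32.6 in every library but KO1.

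Of the 8 members other than *Actb*, 1 was called between genotypes in glutamatergic neurons at a limma adjusted p under 0.05, with 4.34% of the 8319 genes tested called (3.15% higher and 1.19% lower in KO). The called member was *Marcksl1*, lower in KO. Without overlap between the groups were 4 of the 8 (*Actg1*, *Pfn2* and *Marcksl1* below, *Marcks* above), where 47.7% of all genes tested did not overlap. The median log2 difference of the 8 members was −0.10 and that of all genes tested −0.04. Of all genes 262 were called higher and 99 lower, and after scaling the levels by the RLE method 407 higher and 37 lower.

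*Cfl1*, which severs actin filaments, measured 18.8, 17.0 and 15.8 in WT2, WT3 and WT4, and 14.7 (KO4) and 16.7 (KO5). The groups overlapped and the log2 difference was −0.13 (limma adjusted p = 0.600). *Pfn1* was 1.17, 1.62 and 1.29 against 1.30 and 1.18 (log2 difference −0.07, limma adjusted p = 0.671), again with overlap. *Pfn2*, the neuronal profilin, was 3.58, 3.65 and 3.59 against 3.14 and 3.05. KO4 and KO5 were below all 3 wild-type libraries, but the log2 difference of −0.17 did not pass (limma adjusted p = 0.285).

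*Tmsb4x*, an X-linked thymosin that holds actin monomers, came to 128, 119 and 158 in WT2, WT3 and WT4, and 139 (KO4) and 127 (KO5). The log2 difference was −0.01 with a 95% interval of −0.48 to 0.47 (limma adjusted p = 0.984). *Tmsb10*, its close relative, was 50.6, 62.1 and 46.0 against 55.6 and 50.2, with a log2 difference of 0.01 (limma adjusted p = 0.979). Both thymosins overlapped between the groups.

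*Marcksl1*, a membrane protein of the MARCKS family that binds and bundles filaments, stood at 25.5, 29.2 and 25.5 in WT2, WT3 and WT4, and 17.7 (KO4) and 16.5 (KO5). The means were 26.7 ± 2.14 (SD, n = 3) and 17.1 ± 0.835 (SD, n = 2), a log2 difference of −0.62 (SE 0.15, limma adjusted p = 0.0443). Neither KO4 nor KO5 reached WT2, WT3 or WT4. The call was lost with WT5 in the wild-type group, where *Marcksl1* was 14.9 (log2 difference −0.42, limma adjusted p = 0.682), and with every library of at least 20 cells as labelled (−0.54, limma adjusted p = 0.931). It was also lost without WT2, without KO4 and without KO5 (−0.65, −0.66 and −0.57, limma adjusted p = 0.0957, 0.354 and 0.632), where the lone knockout library is assumed to vary like the others. The count tests of edgeR and DESeq2 (−0.47 each, adjusted p = 0.112 and 0.0723) and RLE scaling (−0.46, limma adjusted p = 0.116) did not call it either. KO1, at 8.48, was the lowest of the 9 libraries, KO2 was 20.8 and WT1 19.5.

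*Marcks*, its family member, ran the other way. It measured 4.93, 3.54 and 4.78 in WT2, WT3 and WT4, and 5.93 (KO4) and 6.32 (KO5), a log2 difference of 0.40 (SE 0.14, limma adjusted p = 0.117) that did not pass. WT5 was 6.14, KO1 6.52 and WT1 6.82, all above WT2, WT3 and WT4, and KO2 at 4.59 lay among them. After RLE scaling of the levels the difference was 0.55 and was called (limma adjusted p = 0.0457), and so it was without WT4 (0.46, limma adjusted p = 0.0475).

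Within glutamatergic neurons the higher *Actb* count of KO4 and KO5 was found in nearly every droplet called a cell. With each cell thinned to 1800 UMIs, the median cell had 8, 6 and 5 *Actb* UMIs in WT2, WT3 and WT4, 31 and 30 in KO4 and KO5 and 36 in WT5. Cells with at least 20 *Actb* UMIs were 9.52% of glutamatergic neurons in WT2 (95% Clopper-Pearson interval 7.15 to 12.4, counting error only), 20.7% in WT3 (18.1 to 23.4) and 8.53% in WT4 (7.43 to 9.73). They were 94.0% in KO4 (92.8 to 95.1), 97.5% in KO5 (96.3 to 98.4) and 97.9% in WT5 (97.0 to 98.5). KO1 held 15.5% and KO2 47.6%. The cut at 20 was set after the values were seen and is a range, not a cell type: 20 to 196 cells a library lay within 3 UMIs of it in the 6 largest libraries. Other classes of at least 20 cells gave shares of 82.2% to 100% in KO4 and KO5, microglia and endothelial cells of KO4 among them (100% and 96.6%). The shares were 95.8% to 98.8% in WT5 and 1.79% to 21.3% in WT2, WT3 and WT4. In the haemoglobin-rich cells that were removed *Actb* was 167 in KO4, 172 in KO5 and 198 in WT5. It was 48.5, 124 and 41.8 in those of WT2, WT3 and WT4 (5, 22 and 35 cells), against 50.4, 64.3 and 40.5 in all their kept cells. No class can be taken to lack *Actb*, so no background share was available, and the part of free RNA in these counts was not tested. The upper tail of WT3 reached 34.6 UMIs at the 90th percentile, against 18 in WT2 and 17 in WT4.

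**Figure D2:**
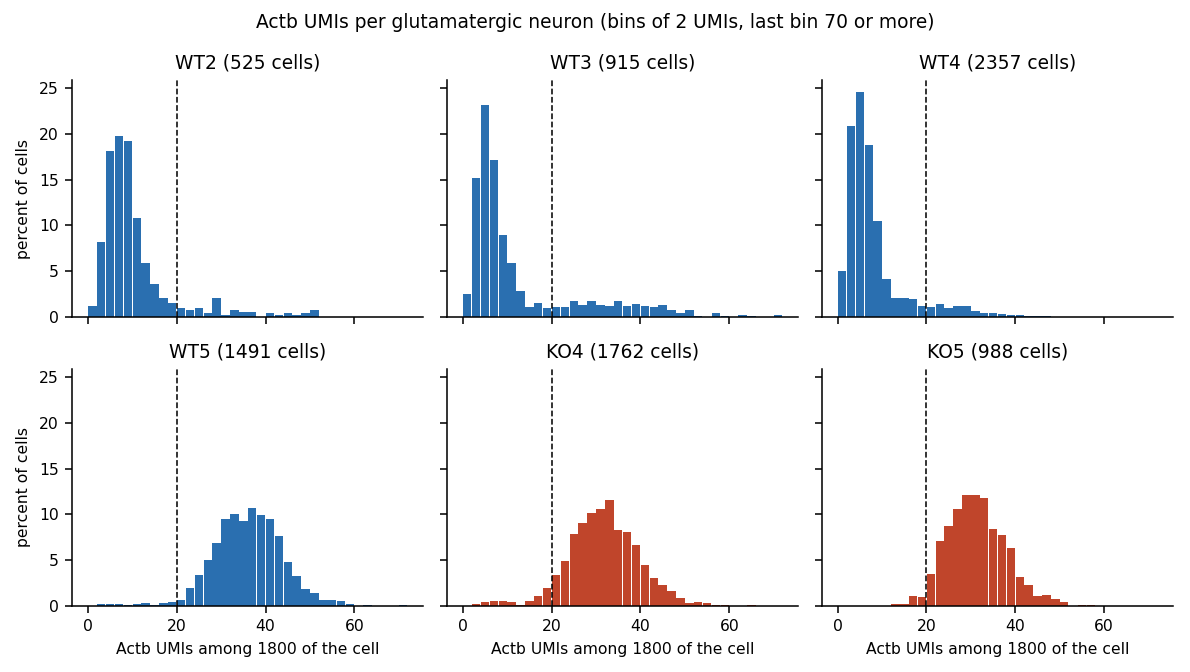
Number of *Actb* UMIs per glutamatergic neuron after thinning to 1800 UMIs (x axis) against the share of cells (y axis), 1 panel a library, with a dashed line at 20 UMIs. WT2, WT3 and WT4 peak below the line with a thin tail past it, and WT5, KO4 and KO5 peak near 30 to 36.

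The cells rich in *Actb* inside the wild-type libraries allowed the same question within a library. In WT3 the 189 cells at or above 20 had an *Actb* level of 198 and the 726 below it 34.2, which is how they were divided. *Actg1* was 30.1 in the rich cells and 30.9 in the others, *Tmsb4x* 122 and 118, *Tmsb10* 65.0 and 61.4, and *Marcksl1* 29.9 and 29.0. *Pfn2* was 2.88 against 3.85 and *Marcks* 3.12 against 3.65. In WT4 *Actb* was 148 in 201 cells and 32.8 in 2156, and *Actg1* was 33.0 and 31.6. In WT2 *Actb* was 177 in 50 cells and 43.5 in 475, and *Pfn2* was 2.82 and 3.66. Over the 6 libraries and 8 other members the ratio of rich to other cells ran from 0.735 to 1.31. *Marcksl1* of the rich cells of WT2, WT3 and WT4, 24.2 to 29.9, stayed above its 16.5 to 17.7 in KO4 and KO5. These are cells of single libraries, so the values carry no test.

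**Figure D3:**
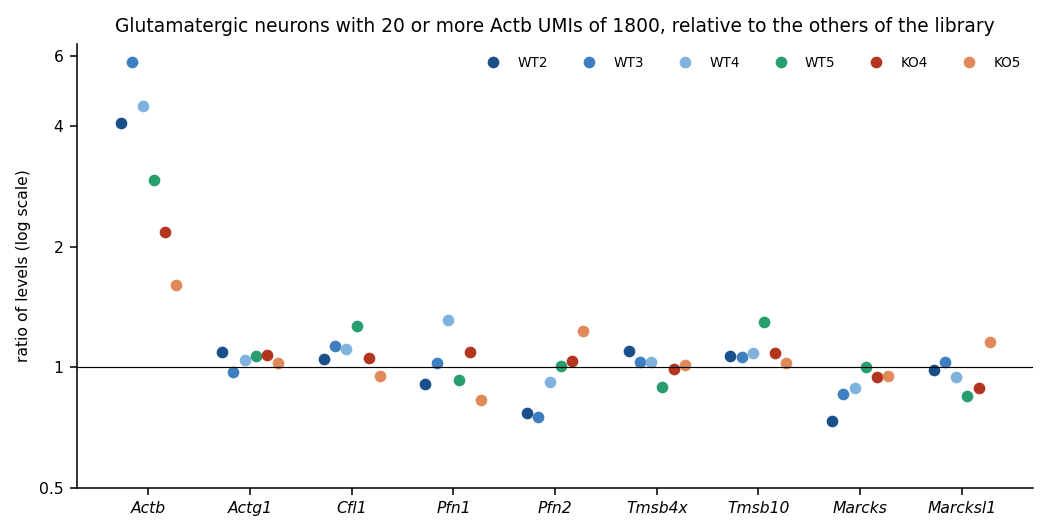
Ratio of the level in glutamatergic neurons with at least 20 *Actb* UMIs of 1800 to the level in the other cells (log axis), for the 9 genes in 6 libraries. *Actb*, which divided the cells, is at 1.60 to 5.80, and the other 8 lie between 0.735 and 1.31.

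*Actb* was also higher in KO4 and KO5 than in WT2, WT3 and WT4 in each of the 5 other classes with at least 20 cells in all 5 libraries. Its log2 difference was 1.75 in deep layer-like neurons, 1.64 in the inhibitory GABAergic neurons, 2.09 in intermediate progenitors, 2.06 in cycling progenitors and 2.17 in radial glia or astrocytes. In radial glia it went from 37.1 ± 9.50 (SD, n = 3) to 167 ± 5.22 (SD, n = 2). The level in KO4 and KO5 was 153 to 177 in all 6 classes, whereas that in WT2, WT3 and WT4 ran from 30.8 to 71.0. In the library labelled WT5 it was 190 to 201 over the 5 of these classes with at least 20 cells.

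In deep layer-like neurons, where 1.24% of genes were called, limma called none of the 8 other members and 2 of them had an unadjusted p under 0.05. These were *Marcksl1* (log2 difference −0.51, limma adjusted p = 0.151) and *Marcks* (0.39, limma adjusted p = 0.236), in the same directions as in the other glutamatergic neurons. In intermediate progenitors (3.12% of genes called) limma called none and 3 had an unadjusted p under 0.05. They were *Marcksl1* (−0.57, limma adjusted p = 0.102), *Tmsb10* (0.55, limma adjusted p = 0.121) and *Tmsb4x* (0.51, limma adjusted p = 0.169). In GABAergic neurons, cycling progenitors and radial glia *Marcksl1* was at −0.33, −0.15 and −0.06. None of these passed (limma adjusted p = 0.435, 0.611 and 0.851). The classes come from the same libraries, so a shared direction is not separate evidence.

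In GABAergic neurons, where 0.971% of genes were called, 1 of the 8 members was. *Pfn2* stood at 6.23, 8.12 and 9.02 in WT2, WT3 and WT4, and fell to 3.82 (KO4) and 3.44 (KO5), a log2 difference of −0.91 (SE 0.20, limma adjusted p = 0.0145). In WT5 it was 2.89, and with WT5 in the wild-type group the call was lost (−0.62, limma adjusted p = 0.580). It was also lost without WT2, KO4 or KO5 (−1.05, −0.97 and −0.85, limma adjusted p = 0.0505, 0.106 and 0.417). KO5 held 34 of these cells. The summed level of the markers of the class was 17.6 to 22.6 in WT2, WT3 and WT4, 11.4 to 12.5 in KO4 and KO5 and 10.9 in WT5, and its part in the difference of *Pfn2* was not tested.

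In radial glia or astrocytes, where 8.52% of genes were called, 3 of the 8 members were called, both thymosins and a profilin. *Tmsb10* came to 23.1, 23.6 and 22.5 in WT2, WT3 and WT4, and rose to 43.7 (KO4) and 45.1 (KO5), a log2 difference of 0.92 (SE 0.16, limma adjusted p = 0.000455). *Tmsb4x* was 76.1, 72.3 and 92.0 and rose to 119 and 126 (0.61, limma adjusted p = 0.0256). *Pfn1*, the widely expressed profilin, was 2.02, 2.93 and 2.22 and fell to 1.45 and 1.09 (−0.57, limma adjusted p = 0.0266). *Actg1* was 19.9, 17.3 and 21.5 against 26.1 and 29.0, a difference that did not pass (0.48, limma adjusted p = 0.0723).

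In cycling progenitors, where 15.1% of genes were called, 2 of the 8 were. *Pfn2* stood at 6.32, 5.14 and 6.44 in WT2, WT3 and WT4, and fell to 3.13 (KO4) and 3.07 (KO5), a log2 difference of −0.76 (SE 0.16, limma adjusted p = 0.00106). *Tmsb10* was 26.6, 29.9 and 30.5 and rose to 48.0 and 44.0 (0.65, limma adjusted p = 0.0180). *Tmsb4x* differed by 0.52, which did not pass (limma adjusted p = 0.103).

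With WT5 in the wild-type group none of these 5 calls in radial glia and cycling progenitors held. The log2 differences were then 0.62 for *Tmsb10*, 0.45 for *Tmsb4x* and −0.43 for *Pfn1* in radial glia (limma adjusted p = 0.720 each), and −0.64 for *Pfn2* (0.587) and 0.44 for *Tmsb10* (0.602) in cycling progenitors. The number of members with an unadjusted p under 0.05 was then 0 in radial glia and 1 in cycling progenitors. Leaving out a library of the comparison also ended calls, and where KO4 or KO5 was left out the lone knockout library is assumed to vary like the others. In radial glia *Tmsb10* was lost without KO5 (0.90, limma adjusted p = 0.0804), *Tmsb4x* without WT2, KO4 or KO5 (0.58, 0.65 and 0.58, limma adjusted p = 0.0714, 0.203 and 0.421) and *Pfn1* without WT3, KO4 or KO5 (−0.46, −0.69 and −0.46, limma adjusted p = 0.103, 0.0897 and 0.411). In cycling progenitors *Tmsb10* was lost without WT2, KO4 or KO5 (0.59, 0.59 and 0.71, limma adjusted p = 0.0763, 0.210 and 0.182), and *Pfn2* kept its call in each. Without WT4 calls were gained by *Actg1* in radial glia (0.54, limma adjusted p = 0.00838), by *Tmsb4x* in cycling progenitors, GABAergic neurons and intermediate progenitors (0.64, 0.61 and 0.72), and by *Tmsb10* and *Marcksl1* in intermediate progenitors (0.55 and −0.59).

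The marker genes that set these classes moved with these results. In radial glia the summed level of the 6 markers of the class was 36.4 to 38.3 in WT2, WT3 and WT4, 14.2 to 16.7 in KO4 and KO5 and 12.9 in WT5. The summed level of the 5 glutamatergic markers in the same cells was 3.43 to 5.11, 8.32 to 8.82 and 8.33. In cycling progenitors the own markers were 42.8 to 49.1, 15.9 to 18.7 and 13.5. The part of RNA from other cells or of mixed droplets in the differences of *Tmsb10*, *Tmsb4x*, *Pfn1* and *Pfn2* was not tested.

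**Figure D4:**
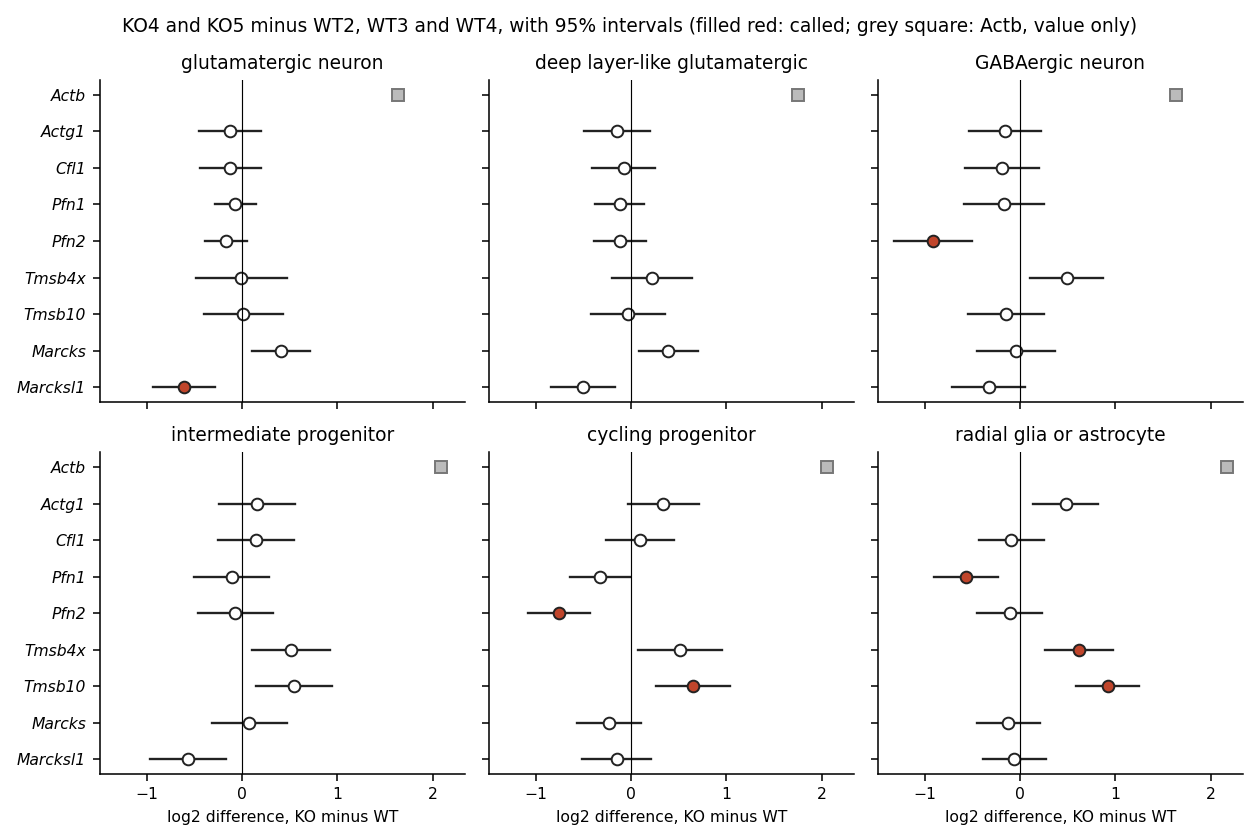
Log2 difference, KO4 and KO5 minus WT2, WT3 and WT4, of the 9 genes in 6 cell classes, with 95% intervals from the limma fit over all genes of the class. Red filled points were called at an adjusted p under 0.05 (*Marcksl1* in glutamatergic neurons, *Pfn2* in GABAergic neurons, *Pfn2* and *Tmsb10* in cycling progenitors, *Pfn1*, *Tmsb4x* and *Tmsb10* in radial glia), and grey squares are *Actb*, shown as values only.

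Levels between cell classes were compared within libraries, each class against glutamatergic neurons with the library as a term in the fit. In radial glia or astrocytes 6 of the 9 members were called, of 12482 genes with 13.7% called. *Tmsb10* (log2 difference −0.72), *Tmsb4x* (−0.46), *Actg1* (−0.41) and *Marcksl1* (−0.40) were lower than in glutamatergic neurons, and *Marcks* (0.40) and *Pfn1* (0.36) were higher. Cycling progenitors (7.39% of genes called) had 5 of the 9 in the same directions, *Tmsb10* at −0.51, *Actg1* at −0.41, *Tmsb4x* at −0.35, *Marcksl1* at −0.35 and *Marcks* at 0.33. Intermediate progenitors (3.25%) had *Tmsb10* at −0.57, *Tmsb4x* at −0.43 and *Cfl1* at −0.23. Both thymosins were called lower in all 3 of these classes than in glutamatergic neurons.

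Leaving out 1 library changed some of these calls. Without WT2 or without WT3, *Actg1* alone was called in cycling progenitors, no member was called by limma in intermediate progenitors, and *Pfn1* lost its call in radial glia (0.34 and 0.33, limma adjusted p = 0.0954 and 0.0932). *Tmsb10* in cycling progenitors then stood at −0.45 and −0.43 (limma adjusted p = 0.0923 and 0.0659), and in intermediate progenitors at −0.52 and −0.50 (limma adjusted p = 0.0925 and 0.0679). Without WT4 *Tmsb4x* alone was called in intermediate progenitors, and *Tmsb10* and *Marcks* lost their calls in cycling progenitors (−0.50 and 0.30, limma adjusted p = 0.0523 and 0.0524). With cells that carried markers of 1 class only, limma called no member in cycling progenitors (*Tmsb10* at −0.24, adjusted p = 0.706), and in radial glia *Actg1* and *Pfn1* lost their calls (−0.35 and 0.20, limma adjusted p = 0.0574 and 0.355).

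Outside this lineage, *Pfn1* was higher in endothelial cells, the lining of blood vessels, by 1.12 on the log2 scale, with *Marcksl1* lower by a log2 difference of −0.79 and *Actg1* at −0.31 (15.6% of genes called). This used 3 libraries of 24 to 58 endothelial cells, and *Pfn1* was 8.22 in those of WT4. *Actg1* lost its call there without WT3 (−0.29, limma adjusted p = 0.0537). In Cajal-Retzius cells, the early neurons of the cortical surface, 3 libraries gave *Tmsb4x* at −0.59 and *Marcksl1* at −0.40 (limma adjusted p = 0.00191 and 0.0482, 9.17% of genes called). *Marcksl1* lost that call without WT3 (−0.38, limma adjusted p = 0.0792) and after thinning (−0.37, limma adjusted p = 0.218). In striatal neurons 3 libraries gave *Tmsb4x* at −0.53 (limma adjusted p = 0.0387, 0.713% of genes called), which was lost without WT2 or WT3 (−0.50 each, limma adjusted p = 0.0967 and 0.110). *Pfn2* was at 0.49 in GABAergic neurons (limma adjusted p = 0.0804, 0.417% of genes called), where limma called no member and 2 had an unadjusted p under 0.05. The deep layer-like neurons (0.0481% called) held no called member by limma and 0 at an unadjusted p under 0.05.

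These class differences were not alike in all libraries. Within WT2, WT3 and WT4 alone, radial glia (27.1% of genes called) differed from glutamatergic neurons in 7 of the 9 members. The log2 differences were −1.15 for *Tmsb10*, −0.74 for *Tmsb4x*, −0.68 for *Marcksl1*, −0.68 for *Actg1*, −0.58 for *Actb*, 0.58 for *Marcks* and 0.52 for *Pfn1*. Cycling progenitors differed in all 9 (21.9%), with *Pfn2* at 0.59. Within KO4 and KO5 alone limma called no member in any of the 5 classes (0.375% of genes called in radial glia, 0.294% in cycling progenitors, 0.274% in intermediate progenitors, 0.0912% in GABAergic and 0.0203% in deep layer-like neurons), with 0 to 2 members a class at an unadjusted p under 0.05. That fit had fewer libraries, of lower depth, than the fit within WT2, WT3 and WT4. The numbers of calls are therefore not comparable between them. The differences in radial glia of KO4 and KO5 were −0.25 for *Tmsb10*, −0.12 for *Tmsb4x* and −0.13 for *Marcksl1*.

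Set out as the ratio of the highest to the lowest class within a library, 8 of the 9 members had a smaller range in each of WT5, KO4 and KO5 than in any of WT2, WT3 and WT4. The same held for 37.6% of 1488 genes with a mean level of at least 1, so the narrowing was not confined to these members, and they were not tested against other genes. The classes were 6, or 5 in WT5, which had too few intermediate progenitors. The ratio for *Tmsb10* was 2.25 to 3.22 in WT2, WT3 and WT4 and 1.10 to 1.41 in WT5, KO4 and KO5. For *Tmsb4x* it was 1.71 to 1.75 and 1.06 to 1.27, for *Actb* 1.38 to 1.74 and 1.06 to 1.14, and for *Pfn2* 1.98 to 3.06 and 1.15 to 1.38. The narrowest in WT2, WT3 and WT4 was *Cfl1*, at 1.24 to 1.43 against 1.16 to 1.18. The exception was *Marcks*, at 1.56 to 2.02 against 1.08 to 1.57, where WT5 overlapped. The summed class markers narrowed in the same 3 libraries, as given above for GABAergic neurons, radial glia and cycling progenitors. Their part in the ranges was not tested.

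**Figure D5:**
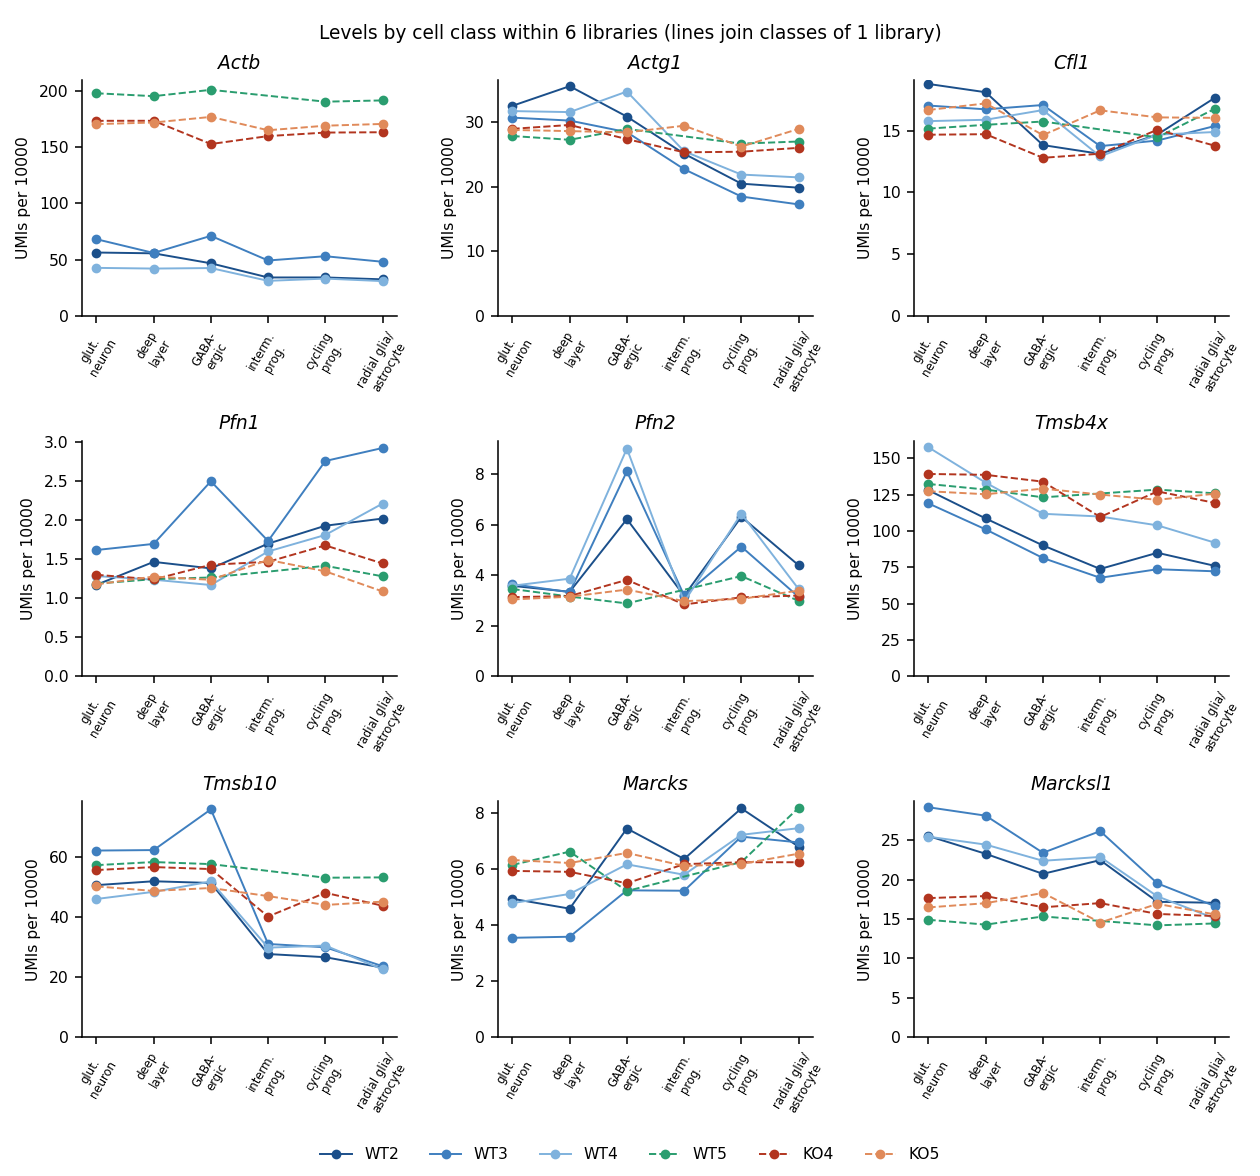
Level of each gene (UMIs per 10000) across the 6 cell classes, with a line for each library. Solid lines are WT2, WT3 and WT4 and dashed lines are WT5, KO4 and KO5, and the dashed lines are flatter in 8 of the 9 panels, *Marcks* in WT5 being the exception.

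The genotype difference of the class differences was tested for the 8 members in 5 classes with a limma fit over all genes, and 17 of the 40 tests passed. This test was chosen after the values were seen. Each class is set against the same glutamatergic neurons of the same libraries, so the 40 tests are not independent. Radial glia (10.5% of genes called) and cycling progenitors (14.7%) held 6 each, intermediate progenitors (1.59%) and GABAergic neurons (0.98%) 2 each, and the deep layer-like neurons (0.0564%) 1. In radial glia the class difference was higher in KO4 and KO5 for *Tmsb10* (by 0.91), *Tmsb4x* (0.62), *Actg1* (0.60) and *Marcksl1* (0.55) and lower for *Marcks* (−0.53) and *Pfn1* (−0.50). *Tmsb4x* passed in all 5 classes. In GABAergic neurons the other was *Pfn2* (−0.74).

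Some of these did not pass with a library left out. In radial glia those of *Tmsb10*, *Tmsb4x* and *Actg1* passed without each library, while *Pfn1*, *Marcks* and *Marcksl1* did not pass without KO5 (−0.43, −0.52 and 0.50, limma adjusted p = 0.189, 0.121 and 0.0621), nor *Marcks* without KO4 (−0.54, limma adjusted p = 0.0691). *Tmsb10* did not pass in cycling progenitors without WT2, KO4 or KO5 (0.61, 0.65 and 0.63, limma adjusted p = 0.127, 0.0589 and 0.114), nor in intermediate progenitors without WT2 or KO5 (0.52 and 0.35, limma adjusted p = 0.0878 and 0.129). *Pfn2* did not pass in GABAergic neurons without WT4, KO4 or KO5 (−0.64, −0.79 and −0.70, limma adjusted p = 0.0739, 0.0588 and 0.252). *Tmsb4x* did not pass there without KO5 (0.46, limma adjusted p = 0.0904), nor in deep layer-like neurons without KO4 or KO5 (0.21 and 0.23, limma adjusted p = 0.133 and 0.0912). With WT5 among the wild-type libraries none of the tests passed in the 4 classes where WT5 had 20 cells, and 1 to 3 members a class had an unadjusted p under 0.05.

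The genes most like *Actb* over 55 pairs of library and class, among 1498 genes with a mean level of at least 1, were not the other members. They were *Clasp2* (Pearson r = 0.953), which stabilises microtubule ends, *Gnb1* (0.935), a G protein subunit, *Kdm6b* (0.934), a histone demethylase, *Arglu1* (0.917), and the haemoglobin gene *Hbb-bs* (0.916). *Clasp2* in glutamatergic neurons measured 0.832, 1.25 and 0.886 in WT2, WT3 and WT4, 4.83 and 5.04 in KO4 and KO5 and 5.31 in WT5. *Hbb-bs* was 3.14, 4.07 and 2.57, then 16.4 and 34.9, and 21.9. Among the members the r with *Actb* was 0.445 for *Tmsb10* (rank 134), 0.288 for *Tmsb4x* (251) and 0.253 for *Actg1* (296), and the other 5 were at −0.04 to −0.22. The pairs share libraries and depth, so these are descriptions.

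Other genes of actin control were read from a list of 110 genes in 13 groups, of which 107 were in the files and 83 passed the filter on low values. In glutamatergic neurons 4 of the 83 were called higher in KO and 1 lower, beside 3.15% and 1.19% of all genes, which makes both counts close to the background. The median log2 difference was −0.06 against −0.04 for all genes. *Rhoa*, the GTPase that drives contractile fibres, came to 1.07, 1.19 and 1.33 in WT2, WT3 and WT4, and rose to 2.39 (KO4) and 2.50 (KO5), a log2 difference of 0.65 (limma adjusted p = 0.00330). *Actr2*, a subunit of the Arp2/3 complex, which branches filaments, was 1.08, 1.22 and 1.11 and rose to 1.78 and 1.74 (0.37, limma adjusted p = 0.0360). *Mkl2* is a coactivator of SRF that is released by monomer depletion. *Mkl2* and *Tagln2*, a transgelin, rose by 0.14 and 0.16 on the log2 scale (limma adjusted p = 0.0383 and 0.0209). *Tagln2* levels lay near the floor: 0.0452 (WT2), 0.0293 (WT3), 0.0561 (WT4), 0.130 (KO4), 0.209 (KO5). Only the knockout libraries reached the filter level of 0.1, so the entry of *Tagln2* into the test, and with it the call, depended on them. *Tagln3*, the neuronal transgelin, was 5.08, 6.58 and 5.17 and fell to 3.50 and 3.54 (−0.54, limma adjusted p = 0.0413).

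Of the 9 tested subunits of the Arp2/3 complex *Actr2* was the 1 called gene, and *Arpc5*, the highest of them, was at −0.44 (limma adjusted p = 0.0809). The gene with the highest level in each of the other groups did not pass by limma, apart from *Tagln3* and *Mkl2* above. *Dstn*, an actin-depolymerising factor, was at −0.32 (limma adjusted p = 0.462), *Twf1*, a twinfilin that binds monomers, at 0.12 (0.251), *Brk1* of the WAVE complex at 0.11 (0.495) and *Evl* of the Ena/VASP family at 0.55 (0.419). *Capza2*, a filament capping subunit, stood at −0.34 (limma adjusted p = 0.147), the tropomyosin *Tpm3* at −0.22 (0.207), the myosin light chain *Myl6* at −0.06 (0.738), the membrane protein *Basp1* at −0.10 (0.672) and the GTPase *Cdc42* at −0.32 (0.148). The WAVE complex (10 genes tested), the cofilin family with its kinases and phosphatases (6), the formins with Ena/VASP (7), capping and severing proteins (9), tropomyosins (3), monomer recycling proteins (6), nonmuscle myosin II (4) and membrane links (8) held none by limma. None of the 5 other actin isoforms, the muscle actins among them, passed the filter. With WT5 added limma called none of the 83, and over all alternatives the list held 0 to 8 higher and 0 to 10 lower. Without WT4 it held 8 and 10, without KO4 1 and 0, and without KO5 0 and 0.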

How the data were processed

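Libraries were prepared from the neocortex of single E18.5 embryos and sequenced on an Illumina HiSeq. Per the submitters' processing notes the authors used Cell Ranger 2.1.0, Seurat 2.3.4 and R 3.6.0 on GRCm38 (mm10). Each deposited table holds 1 value per gene and cell. WT4, WT5, KO4 and KO5 were deposited by the authors as UMI counts, and the other 5 libraries as the natural log of 1 plus UMIs per 10000 of the cell, which gave back whole UMIs for 100% of values (within 1e-06). The authors tested cells with MAST, which was not used here because cells are not replicates.

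Cells with 1000 to 5000 genes, 1800 to 10000 UMIs, under 6% mitochondrial and at most 1% haemoglobin UMIs were kept. No doublet caller was run. Classes were set on whole cells, before any thinning. Classes needed at least 2 detected markers and more than any other class, and glutamatergic cells with at least 2 deep layer markers were called deep layer-like. The gate of the main class, all other glutamatergic neurons, was chosen after the data were seen, since 1 planned marker and the class it set are not reported here. Levels were averaged per library and class (at least 20 cells) and fitted with limma 3.58.1 (trend, robust) on log2(level + 1), over genes with a level of at least 0.1 in 2 libraries, with Benjamini-Hochberg adjustment over all genes. Folds on this scale understate the change of low genes. edgeR 4.0.16 and DESeq2 1.42.0 were alternatives on summed counts. 1 library is 1 animal, and the scripts were tested on simulated data. Named beside the 9 members were the highest gene of each actin group, the called genes of the list without overlap, and the 5 genes with the highest r to *Actb*.

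The members, lists and classes were chosen with earlier results of these data known. Gene positions came from a GENCODE release on GRCm38 that was not the authors' annotation.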

Additional observations from a re-analysis of the deposited data

Results flagged for a closer look

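In glutamatergic neurons each gene was checked for a library that lay far from the others of its label, in 18 groups, where chance alone marks about 1 in 20. *Tmsb10* in WT1, at 109 in 28 cells, stood far above WT2, WT3, WT4 and WT5 (50.6, 62.1, 46.0 and 57.3).

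The difference of a class from glutamatergic neurons differed between genotypes by the interaction test of limma for these members, each value being the class difference in KO4 and KO5 minus that in WT2, WT3 and WT4 on the log2 scale. In radial glia or astrocytes it was 0.60 for *Actg1*, −0.50 for *Pfn1*, 0.62 for *Tmsb4x*, 0.91 for *Tmsb10*, −0.53 for *Marcks* and 0.55 for *Marcksl1*. In cycling progenitors it was 0.46 for *Actg1*, −0.59 for *Pfn2*, 0.52 for *Tmsb4x*, 0.64 for *Tmsb10*, −0.64 for *Marcks* and 0.47 for *Marcksl1*. In intermediate progenitors it was 0.52 for *Tmsb4x* and 0.54 for *Tmsb10*, in GABAergic neurons −0.74 for *Pfn2* and 0.49 for *Tmsb4x*, and in deep layer-like neurons 0.22 for *Tmsb4x*. The test was chosen after the values were seen, and its classes share the same glutamatergic reference. With the library labelled WT5 among the wild-type libraries none passed in the 4 classes where it had 20 cells. The part of the weaker class markers of WT5, KO4 and KO5 in these differences was not tested.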

How the results depend on the processing

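Of 1696 values recomputed under another setting, 1441 were labelled the same, 111 lost a call, 33 gained one and 111 moved further, and no called result reversed. The same meant the same side of the threshold, or a count within 1.5 times. For *Actb* and the median of the list it meant a shift below the SD between libraries. A value called in neither setting was labelled the same whatever its sign. Of 1014 values of results that were not called, 76 had the other sign. The main counts in glutamatergic neurons were 262 genes higher and 99 lower, 1 member (2 at an unadjusted p under 0.05) and 4 and 1 of the actin list. With edgeR and TMM factors there were 33 genes lower, 0 members and 0 of the list lower, with edgeR and RLE factors 33, 0 and 0, and with DESeq2 48 genes lower and 0 members, each with 2 members at an unadjusted p under 0.05. After RLE scaling limma called 407 genes higher and 37 lower, with 0 of the list lower. With no filter on low values it called 109 and 3 genes, 0 members and 1 and 0 of the list, which follows 16146 genes tested in place of 8319. The list held 2 lower after thinning and 2 with cells of 1 class only, and 0 with haemoglobin-rich cells kept, and 157 genes were lower with at least 3 markers. The cause of the other shifts was not tested.

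With WT5 added to the wild-type group, and with every library of at least 20 cells as labelled, limma called 0 genes in either direction, 0 members and 0 of the list, with 388 and 318 genes at an unadjusted p under 0.05. With WT5 added the members called were also 0 in cycling progenitors, 0 in GABAergic neurons and 0 in radial glia. The interactions, an alternative chosen after seeing the data, were then 0 in place of 6 (cycling), 1 (deep layer-like), 2 (GABAergic) and 6 (radial glia). In the fit with the replicate block, over numbers 1, 2, 4 and 5 in glutamatergic neurons, limma called 0 genes higher and 0 lower, 0 members and 0 of the list, with 134 genes at an unadjusted p under 0.05. Same-numbered libraries did not all deviate together (over 1473 genes r = −0.03, 0.290, 0.0988 and 0.507 for numbers 1, 2, 4 and 5), and KO4 correlated best with WT5 (0.516) and KO1 with WT2 (0.243), so the numbers were not taken to pair the libraries.

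Between classes, members called were 1 in Cajal-Retzius cells after thinning and with a pseudocount of 0.1, 0 in cycling progenitors with cells of 1 class only, and 1 in GABAergic neurons with at least 3 markers or with the 5 compared libraries only. Chosen after seeing the data, WT2, WT3 and WT4 alone gave 9 (cycling), 1 (deep layer-like), 4 (GABAergic) and 6 (intermediate). KO4 and KO5 alone, with fewer libraries of lower depth, gave 0 in cycling and intermediate progenitors and radial glia.

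Leaving out each compared library in turn gave 65 to 539 genes higher and 1 to 721 lower, 0 to 2 members and 0 to 8 higher and 0 to 10 lower of the list in glutamatergic neurons. Members called between genotypes were 1 to 3 in cycling progenitors, 0 to 3 in intermediate progenitors, 0 to 2 in GABAergic neurons, 0 to 0 in deep layer-like neurons and 0 to 4 in radial glia. Against glutamatergic neurons they were 1 to 6, 0 to 3, 0 to 0, 0 to 0 and 5 to 6 in the same order, with 2 to 3 in endothelial cells, 1 to 2 in Cajal-Retzius cells and 0 to 1 in striatal neurons. Interactions were 5 to 7, 1 to 3, 0 to 2, 0 to 1 and 3 to 6. The lowest counts of genes came without KO5 and the highest without WT4. Depth limits the low members: *Pfn1* at about 1 UMI per 10000 is under 1 UMI in most cells, and classes of 20 to 60 cells rest on few of its UMIs.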

Other observations

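Microglia and endothelial cells entered no genotype comparison. In WT4, the library with most microglia, *Tmsb4x* and *Pfn1* were higher in both than in glutamatergic neurons, *Pfn2* was lower in both, and *Tmsb10* was lower in microglia and higher in endothelial cells. *Tmsb4x* was 276 UMIs per 10000 in 47 microglia and 233 in 24 endothelial cells of WT4, against 158 in its glutamatergic neurons. In KO4 *Tmsb4x* was 167 in 35 microglia and 147 in 58 endothelial cells, and in WT5 it was 144 in 33 endothelial cells. *Pfn1* was 4.09 in the microglia and 8.22 in the endothelial cells of WT4 against 1.29 in its glutamatergic neurons, and 2.63 in the microglia of KO4. *Tmsb10* was 23.0, 60.7 and 46.0 in the same 3 classes of WT4, and *Pfn2* was 1.46, 2.01 and 3.59. The summed level of the 6 microglial markers in these cells was 147 in WT4 and 25.5 in KO4, and that of the 6 endothelial markers 87.5 in WT4, 34.0 in KO4 and 24.4 in WT5. No genotype test was run in these cells.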
